A study of Mus musculus with 2 samples.

Results

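The clustered protocadherin locus was taken as every listed methylation site on chromosome 18 between positions 36930000 and 37845000 of the mouse genome build GRCm38. It held 480 sites in either library, of 1370254 in the whole series. Of these, 348 were listed in undifferentiated cells and 367 after differentiation. Sites were listed only with at least 5 reads. By motif, 287 of the 480 sites were CCGG and 193 were CCAGG or CCTGG. The locus was divided by position into the alpha cluster (36930000 to 37190000), the beta cluster (37260000 to 37515000) and the gamma cluster (37660000 to 37845000), with a gap on either side of the beta cluster. The 1 Mb on either side served as flanks.

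Clustered protocadherins are cell-surface adhesion proteins of the cadherin superfamily. In the alpha and gamma clusters each variable exon has its own promoter and is spliced to a set of constant exons shared by the cluster, whereas each beta gene is a single exon. Neurons choose among these promoters largely at random, which gives each cell its own combination of surface proteins. The exceptions are the C-type genes at the end of the alpha and gamma clusters, which are used more uniformly. Promoter choice depends on the binding of CTCF and cohesin, which CpG methylation of the promoters opposes. The methyltransferase Dnmt3b sets that methylation in the early embryo, and Smchd1, Wiz and Setdb1 take part in regulating the locus.

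The libraries came from F9, an established mouse embryonal carcinoma line. There was 1 library of undifferentiated cells grown on gelatin-coated plates, and 1 of cells at day 4 after plating in low-attachment dishes with 1 µM retinoic acid. The descriptions of both libraries also carry the word untreated, and the labels do not say which treatment is meant. MethylRAD, the assay used, counts short fragments that the enzyme FspEI cuts out around methylated cytosines, so more reads at a site reflect more methylation there. The labels do not say how many cultures went into a library. The series addressed the regulation of pluripotency enhancers in these cells.

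With 1 library per state there were no replicates, so every test below compares 2 libraries and not the conditions. The tables held 20550450 and 21291239 counts in all, of which CCGG sites contributed 16686713 and 15703524, undifferentiated first. Levels are given per 1000000 CCGG counts, and 3 counts correspond to 0.180 and 0.191 on this scale. A site that was not listed had 0 to 4 counts and cannot be called unmethylated. Intervals are 95% intervals and cover counting error only, since PCR copies are not independent molecules. The alternative scalings, by the median ratio over sites, by the divisors from which the RPM column was made or by all counts, lower every log2 ratio by 0.16, 0.23 and 0.14. Ratios are therefore best read against the flanks, which shift with them. No marker of cell identity can be read from these data.

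**Figure D1:**
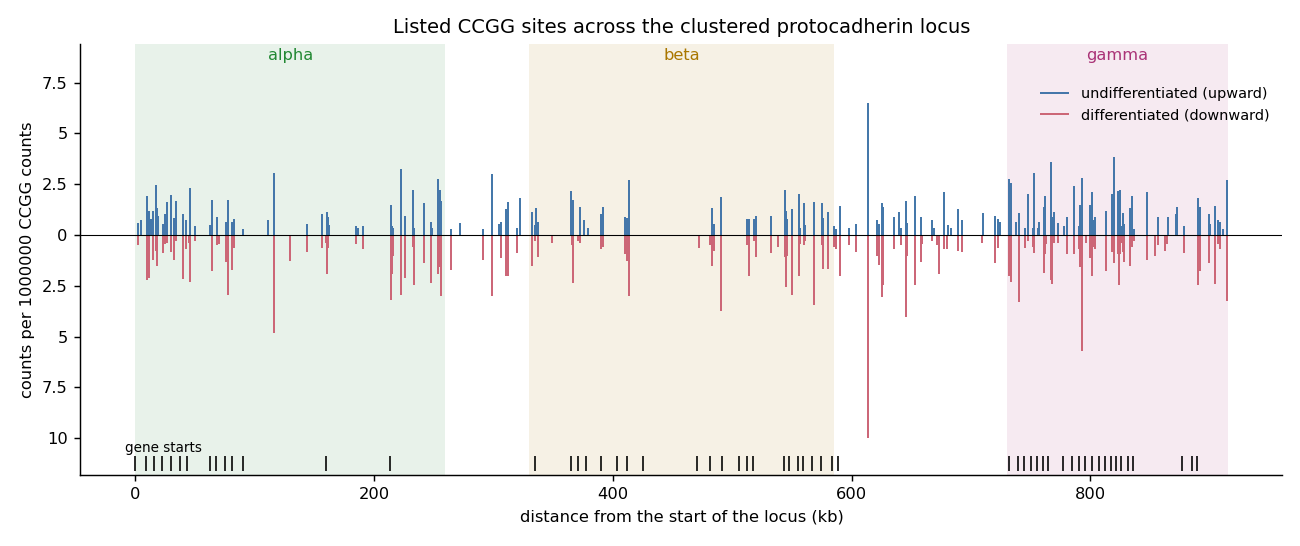
Each vertical line is 1 listed CCGG site, placed by its distance in kb from the start of the locus, with its counts per 1000000 CCGG counts drawn upward for the undifferentiated and downward for the differentiated library. Ticks at the bottom mark gene starts, around which most lines of the 3 clusters gather, and the highest line in both libraries lies in the gap between beta and gamma.

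CCGG sites in the protocadherin clusters were weaker than in the sequence around them, and in alpha and beta they were also fewer, in both libraries. The 3 clusters together held 2.80 listed sites per 10 kb before and 2.66 after differentiation, against 4.68 and 4.51 (from 936 and 903 sites) in the flanks. The genome held 2.64 and 2.48 per 10 kb, so the clusters were close to the genome and the flanks lay above it. The beta cluster was the sparsest, with 1.92 and 1.88 sites per 10 kb. Gamma was the densest, with 4.38 and 4.16, which lay between the 5′ flank (3.97 and 3.86) and the 3′ flank (5.39 and 5.17). Alpha lay between beta and gamma at 2.54 and 2.35. The number of CCGG motifs in the reference at this locus was not known here, so these densities cannot be turned into shares of available sites.

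The median listed CCGG site of the 3 clusters had 14.5 counts before and 13 after differentiation. In the flanks the medians were 22 and 18, and in the genome 19 and 17. By cluster the undifferentiated medians were 12 in alpha, 14 in beta and 15 in gamma, and the differentiated medians were 13 in all 3. Strong sites were scarce. Sites with at least 40 counts made up 6.06% of alpha, 2.04% of beta and 9.88% of gamma sites in the undifferentiated library, against 17.8% in the flanks. In the differentiated library the order changed, with 8.20% in alpha, 10.4% in beta and 3.90% in gamma, against 16.6% in the flanks. These percentages rest on 4, 1 and 8 sites in the first library and 5, 5 and 3 in the second.

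Gamma separated from alpha and beta between the libraries. Summed CCGG counts, with an unlisted site given 4 counts, were 1149 and 1267 in alpha, 848 and 894 in beta, and 1655 and 1417 in gamma, undifferentiated first. The log2 ratio of differentiated to undifferentiated was 0.23 in alpha (0.11 to 0.35), 0.16 in beta (0.03 to 0.30) and −0.14 in gamma (−0.24 to −0.03). In the 5′ flank it was −0.01 (−0.05 to 0.04) and in the 3′ flank −0.03 (−0.07 to 0.00074). Alpha and beta were thus on the higher side in the differentiated library, gamma was on the lower side, and the flanks were near level. Under the other scalings the alpha and beta intervals include 0 and beta falls to −0.06 in 1 of them, whereas gamma stays below 0.

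Differences between regions do not depend on the scaling. Alpha exceeded both flanks by 0.25 on the log2 scale (0.13 to 0.37; Fisher's exact test, 2-sided, Benjamini-Hochberg adjusted over 6 comparisons, p = 9.6e-05). Beta exceeded them by 0.19 (0.05 to 0.32; adjusted p = 0.0134 by the same exact test). Gamma lay below them by a difference of −0.11 (−0.22 to −0.01; adjusted p = 0.0419, exact test), and with flanks of 500 kb this was −0.07 (unadjusted exact p = 0.194). Alpha minus gamma was 0.37 (0.21 to 0.52; adjusted exact p = 2.2e-05) and beta minus gamma 0.30 (0.13 to 0.47; adjusted exact p = 0.00111). Alpha minus beta was 0.06, with an interval of −0.11 to 0.24 and an adjusted exact p of 0.489. The read counts behind these tests are not biological replicates, and the log2 ratios of single sites with a count in each library had an SD of 1.07 in the locus, where counting error alone gives 0.56.

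**Figure D2:**
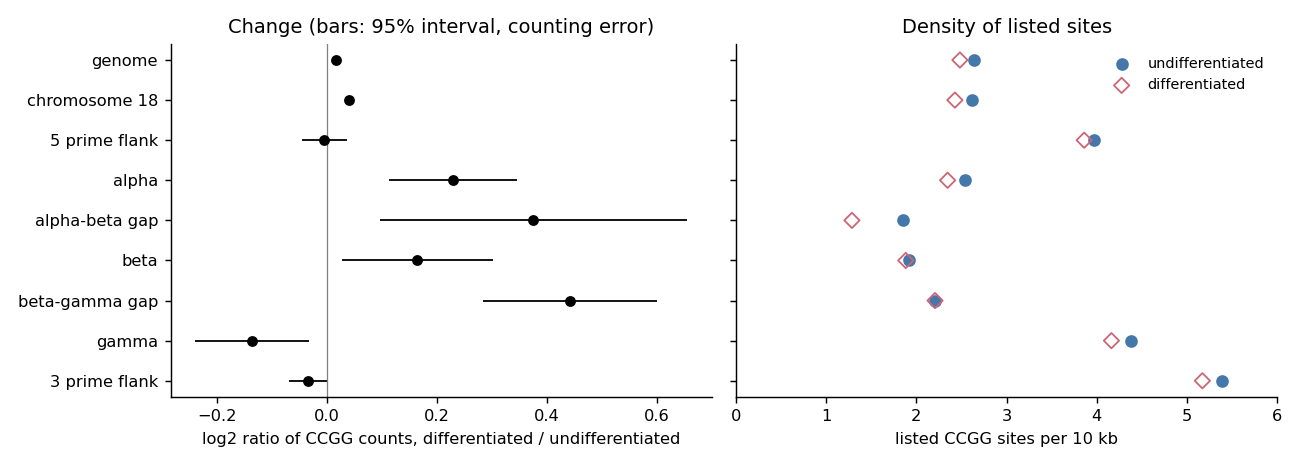
Left, log2 ratio of summed CCGG counts, differentiated over undifferentiated, for each region, with bars for the 95% interval from counting error. Alpha, beta and both gaps lie above 0, gamma lies below it, and right, listed CCGG sites per 10 kb show the 3 clusters below the 3′ flank in both libraries.

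The gaps between the clusters were also on the higher side in the differentiated library, though neither was tested against the flanks. With unlisted sites at 4 counts, the gap between alpha and beta went from 195 to 238 counts on 13 sites, a log2 ratio of 0.38 (0.10 to 0.66). Of the 238 counts, 222 were listed, and with unlisted sites at 0 the ratio was 0.27. Under each of the other scalings the interval of this gap includes 0. The gap between beta and gamma went from 583 to 745 on 39 sites, a log2 ratio of 0.44 (0.28 to 0.60), and 0.46 with unlisted sites at 0. By its bounds this second gap takes in Pcdhb22 and the end of Pcdhb21, so its ratio includes sites of beta genes. It also holds Slc25a2, a mitochondrial ornithine carrier gene, and Taf7, which encodes a subunit of the general transcription factor TFIID. Neither gene body (37637378 to 37638723 and 37640491 to 37644204) had a listed CCGG site in either library. The strongest CCGG site of the whole locus lay in this gap, at 37543949. Its count went from 108 to 157, or 0.63 on the log2 scale (exact test adjusted over all sites of the genome, p = 0.0051).

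At the scale of 100 kb windows, 5 of the 10 windows that overlap the locus were called, 4 higher and 1 lower in the differentiated library. A window was called at an adjusted p under 0.05 in Fisher's exact test over all windows of the genome. Of all windows tested, 36.2% were called, 22.7% higher and 13.4% lower, so calls of this kind were common. The higher windows covered the latter part of alpha, with both of its C-type genes (37000001 to 37100000, from 243 to 346 counts with unlisted sites at 4, and 37100001 to 37200000, from 414 to 554). They also covered a late part of beta (37400001 to 37500000, from 440 to 530). The last of them covered the end of beta and the start of the gap behind it (37500001 to 37600000, from 497 to 686). The log2 ratios of these 4 windows were 0.60, 0.51, 0.36 and 0.55. The lower window lay inside gamma (37700001 to 37800000) and went from 937 to 746, a log2 ratio of −0.24. With median-ratio scaling the split was 3 higher and 3 lower, where 40.8% of the genome's windows were called.

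Single sites showed both directions in each cluster, at about the rate of the genome. Of all CCGG sites tested, 23.5% were called, 11.6% higher and 11.9% lower in the differentiated library. In the locus 65 of 268 tested sites were called, or 24.3%. Alpha had 12 higher and 6 lower among 73 tested, beta 8 and 5 among 53, and gamma 9 and 14 among 91. The higher calls made up 66.7% of the alpha calls, 61.5% of the beta calls and 39.1% of the gamma calls. With median-ratio scaling these shares were 52.9%, 50% and 26.9%, with the divisors of the deposited RPM values 42.9%, 36.4% and 26.9%, and with all counts 52.9%, 50% and 28.0%. The split of the genome's sites under these scalings is not given here, so a turn of the locus cannot be told from one of the genome. In the flanks 97 sites were higher and 149 lower among 1029.

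**Figure D3:**
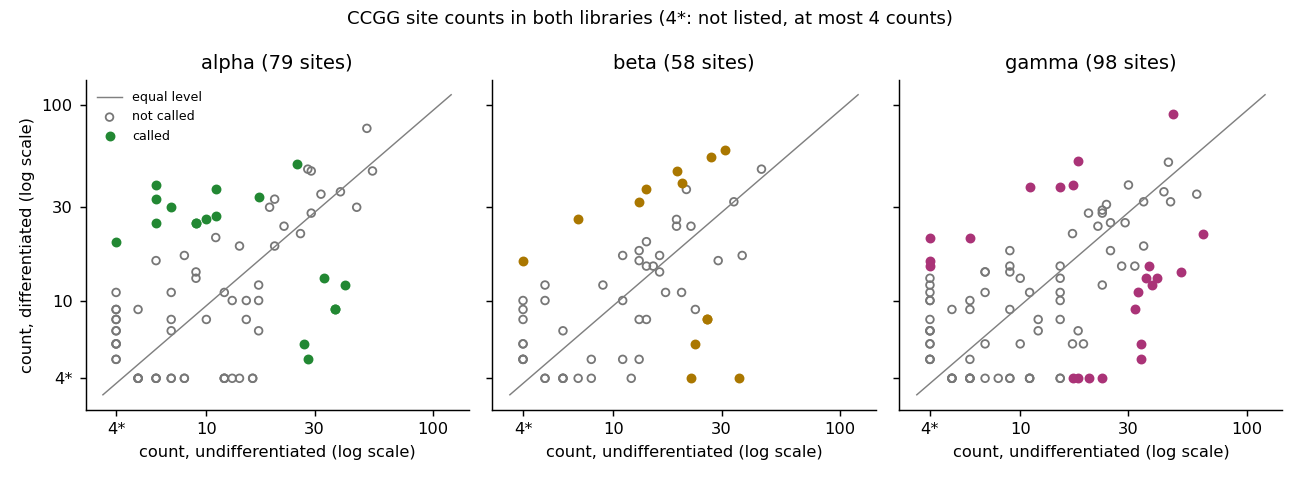
Each point is 1 CCGG site of the alpha, beta or gamma cluster, with its count in the undifferentiated library on the horizontal and in the differentiated library on the vertical axis, both on log scales. Sites not listed in a library are drawn at 4 counts, filled points passed the site test, and called points lie on both sides of the line of equal level in each cluster.

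In alpha the strongest site lay at 37046264, outside any gene start window, with 51 and 76 counts. Its log2 ratio of 0.66 did not pass the test (exact test, adjusted p = 0.0517). With unlisted sites at 4 counts, the largest rise was at 37163351, in the sequence after the last alpha start window, from 6 to 39 counts, or 6.91-fold by level (exact test, adjusted p = 7.75e-06). The largest fall on the same footing was at 36964425, from 28 to 5 counts, or 5.27-fold (exact test, adjusted p = 0.00118). A site that went from unlisted to 20 counts, at 37059790, rose at least 5.31-fold and so may have risen more than the first. A further fall, at 36956709, went from 27 to 6 counts.

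In beta the strongest site lay 1689 bp into Pcdhb7, at 37343391, with 45 and 47 counts. With unlisted sites at 4 counts, the largest fall lay 414 bp into Pcdhb2, at 37295254. It had 36 counts before differentiation and was not listed after it, so its level fell at least 8.47-fold (exact test, adjusted p = 1.53e-05). A site in Pcdhb1, at 37265890, went from 22 counts to unlisted, at least 5.18-fold, and so may have fallen more. In Pcdhb2, 1886 bp from the start, a site rose from 14 to 37 counts. The largest rise in beta lay 2235 bp into Pcdhb7, at 37343937, from unlisted to 16 counts, at least 4.25-fold (exact test, adjusted p = 0.0299). Its reads were soft-clipped, that is, aligned over part of their length, and its call was lost under each of the other scalings.

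In gamma the strongest site was itself called. It lay 2215 bp into Pcdhgb4, at 37722591, and rose from 47 to 90 counts, a log2 ratio of 1.02 (exact test, adjusted p = 0.000843). With unlisted sites at 4 counts, the largest fall was at 37677381, between gene start windows, from 34 to 5 counts, or 6.40-fold (exact test, adjusted p = 0.000105). A called site that went from 23 counts to unlisted, at 37802629, fell at least 5.41-fold and so may have fallen more, as may 1 at 37731076 that went from 20 counts to unlisted (at least 4.71-fold). The largest rise lay 1960 bp into Pcdhga11, at 37757733, from unlisted to 21 counts, at least 5.58-fold (exact test, adjusted p = 0.00393).

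Most sites of beta and gamma lay in windows drawn around gene starts, mainly well downstream of the start itself. A start window was defined as the 500 bp before to 2499 bp after the start of each gene in the RefSeq table of the same build, which covers the promoter and much of the variable exon. That table gives no strand, and all clustered protocadherins were taken to read toward increasing position, while the strand of other genes came from the RefSeq promoter table. There were 58 clustered protocadherin genes, 14 alpha, 22 beta and 22 gamma, counted with Pcdhb22, which lies beyond the beta bound at 37515000. The windows held 48.1% of alpha sites on 16.1% of the cluster's length, 82.8% of beta sites on 24.3%, and 68.4% of gamma sites on 35.7%. In the undifferentiated library this gave 7.42, 6.79 and 8.18 listed sites per 10 kb in the windows of alpha, beta and gamma. Outside the windows and the sequence after the last window of alpha and of gamma there were 1.02, 0.36 and 2.02 per 10 kb. Of the 132 window sites listed in that library, 5 lay before the start and 13 in the first 500 bp after it. At least 1 listed CCGG site was found in 51 of the 58 windows (87.9%), against 59.6% of 17491 other protein-coding genes. The 7 genes without a listed CCGG site were Pcdhb6, Pcdhb8, Pcdhb11, Pcdhb12, Pcdhga5, Pcdhga9 and the C-type gene Pcdhgc4.

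Of the 44 windows whose counts summed to 20 or more, 11 were called, 7 higher and 4 lower in the differentiated library. Over all protein-coding genes 27.2% of tested windows were called, 15.0% higher and 12.2% lower, so the 11 of 44 in the locus were near the background. The split turned with the scaling, to 5 higher and 6 lower with median-ratio scaling and 5 and 8 with the RPM divisors. Whether start windows of the genome turned alike is not shown. With unlisted sites at 0, 17 windows were called, 11 higher and 6 lower. Counts of windows are given as listed, and ratios with unlisted sites at 4 counts. The undifferentiated median was 35 counts per alpha window, 39 per beta window and 27 per gamma window. In the differentiated library the medians were 35.5, 22 and 31.5. The sum over all beta windows was 758 and 777.

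**Figure D4:**
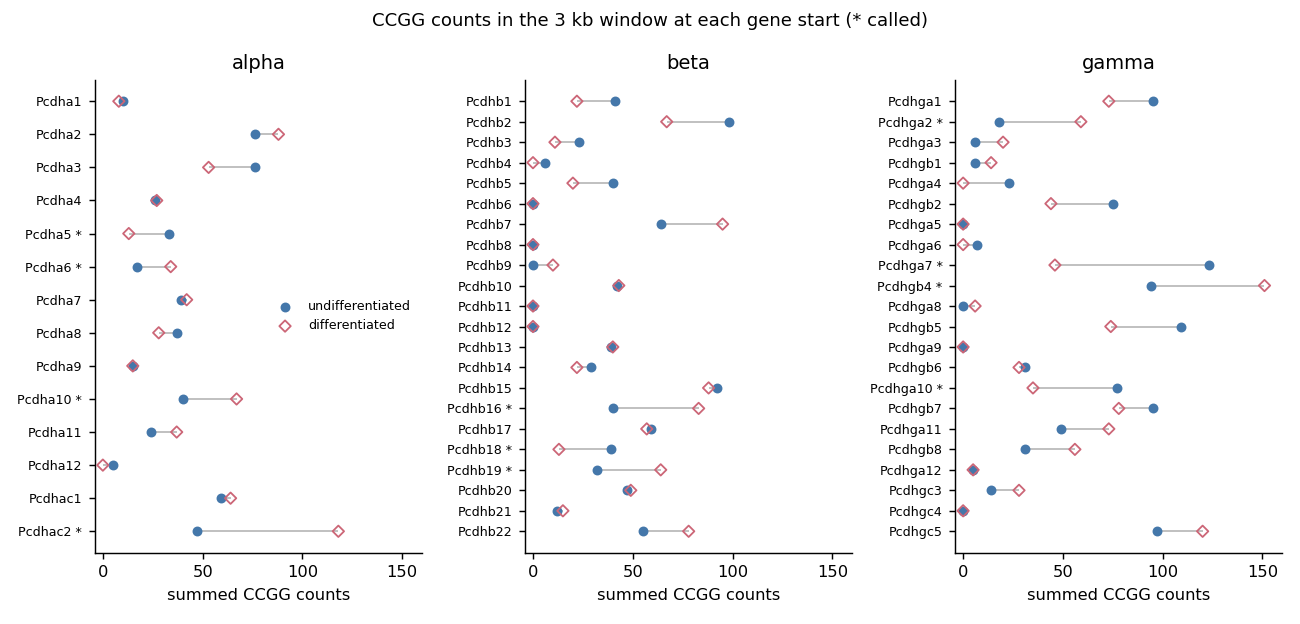
Summed CCGG counts in the start window of each gene, in chromosome order from top to bottom within the alpha, beta and gamma clusters, with filled circles for the undifferentiated and open diamonds for the differentiated library. An asterisk marks the 11 called windows, and neighbouring genes such as Pcdhga7 and Pcdhgb4, or Pcdhb18 and Pcdhb19, moved in opposite directions.

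Among the alpha genes, Pcdhac2 had the lowest p. This C-type gene is the last of the variable exons before the shared ones. Its window went from 47 to 118 counts, or from 55 to 122 with unlisted sites at 4, a log2 ratio of 1.24 (exact test, adjusted p = 3.2e-06). Of its 6 sites 3 were called, all higher, at 935, 1101 and 1517 bp from the start, with 10, 25 and 7 counts before and 26, 50 and 30 after differentiation. The other C-type alpha gene, Pcdhac1, had 59 and 64 counts and was not called. Pcdha2 had 76 and 88 counts and Pcdha3 76 and 53, and neither window was called. In Pcdha3 the site at 1481 bp fell from 41 to 12 counts (exact test, adjusted p = 0.0019).

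The remaining called alpha windows rested on few sites. Pcdha10 rose from 40 to 67 counts over 2 sites, and Pcdha6 from 17 to 34 at 1 site, with log2 ratios of 0.83 and 1.09 (exact test, adjusted p = 0.019 and 0.0432). Both calls were lost under median-ratio scaling. Pcdha5 fell from 33 to 13 counts at 1 site just upstream of its start, a log2 ratio of −1.26 (exact test, adjusted p = 0.0317). The lowest windows were those of Pcdha12, with 5 counts in the undifferentiated library only, Pcdha1, with 10 and 8, and Pcdha9, with 15 in both.

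Of 16 tested beta windows 3 were called, 2 higher and 1 lower. Pcdhb16 rose from 40 to 83 counts (log2 1.14; exact test, adjusted p = 0.000443) and Pcdhb19 from 32 to 64 (log2 1.09; exact test, adjusted p = 0.00394). Pcdhb18, which lies between them, fell from 39 to 13, or to 17 with its unlisted site at 4 (log2 −1.11; exact test, adjusted p = 0.0313). The windows with the most counts were Pcdhb15 (92 and 88), Pcdhb2 (98 and 67) and Pcdhb7 (64 and 95), and none of them was called. Pcdhb2 and Pcdhb20 each held 1 site called higher and 1 called lower, which left Pcdhb20 at 47 and 49 counts in sum. A window sum near level therefore does not mean that its sites were.

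In gamma, Pcdhga7 showed the lowest p of any called window of the locus. Its 4 sites fell from 123 to 46 counts in sum, a log2 ratio of −1.33 (exact test, adjusted p = 1.8e-06). Its next neighbour in the order of starts, Pcdhgb4, has 6 sites and rose from 94 to 151, or from 102 to 155 with unlisted sites at 4, a log2 ratio of 0.69 (exact test, adjusted p = 0.00185). Pcdhga2 rose from 18, or 22 with its unlisted site at 4, to 59 (log2 1.51; exact test, adjusted p = 0.000206), nearly all at 1 site 1536 bp from the start with 18 and 52 counts. Pcdhga10 fell from 77 to 35, or from 81 to 39 with unlisted sites at 4 (log2 −0.97; exact test, adjusted p = 0.00411). Pcdhgb7 held the most called sites, 1 higher and 2 lower, and its sum of 95 and 78 was not called. Pcdhgb5, with 109 and 74 counts, was not called either.

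Among the gamma C-type genes, Pcdhgc5 had 97 and 120 counts over 7 sites, with 1 site higher, and its window was not called (log2 0.38; exact test, adjusted p = 0.14). Pcdhgc3 had 14 and 28 counts at 2 sites close enough to share reads, and was not called either (exact test, adjusted p = 0.0685). Of the 5 C-type genes, only Pcdhac2 was called, and whether it differs from the other 4 was not tested.

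Within the start windows, the position of a site went with its direction. The split was drawn after the values had been seen, so it is given without a test. Sites from 500 bp upstream to 1499 bp downstream of the starts summed to 1300 and 1056 counts over the 58 genes with unlisted sites at 4, a log2 ratio of −0.21 (−0.33 to −0.09). Of 76 sites tested there, 4 were called higher (5.26%) and 12 lower (15.8%). Sites from 1500 to 2499 bp summed to 1021 and 1341, a log2 ratio of 0.48 (0.36 to 0.60). Of 69 sites tested, 14 were called higher (20.3%) and 2 lower (2.90%). In other protein-coding genes the log2 ratio was 0.11 in the near part and 0.07 in the far part. There, 1389 of 16437 tested sites were called higher (8.45%) and 1221 lower (7.43%) in the near part, and 812 of 7848 higher and 785 lower in the far part.

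The contrast came from beta and gamma. In beta the near part went from 374 to 268 counts (log2 −0.39) and the far part from 408 to 545 (log2 0.51), a difference of 0.90. In gamma the near part went from 658 to 486 (log2 −0.35) and the far part from 349 to 480 (log2 0.55), again a difference of 0.90. In alpha both ratios were above 0, at 0.26 and 0.35, with a difference of 0.09. Restricting to sites listed in both libraries gave −0.20 and 0.47 in beta and −0.35 and 0.55 in gamma. Gene by gene, the far part had the higher ratio in 8 of 13 beta, 9 of 12 gamma and 5 of 10 alpha genes that had sites in both parts.

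Bins of 500 bp did not all follow the split. The lowest ratio in beta lay in the first 500 bp, from 101 to 43 counts with unlisted sites at 4 (log2 −1.14), followed by the next 500 bp, from 143 to 70 (log2 −0.94). Of the 101 counts, 36 came from the Pcdhb2 site described above. Between 1000 and 1499 bp, still in the near part, beta went from 101 to 132, a log2 ratio of 0.47 (0.09 to 0.86) close to that of the far part. In gamma the lowest ratio lay in that bin, from 370 to 236 counts (log2 −0.56), where 5 of 20 tested sites were called lower and 0 higher. The gamma bin before it, 500 to 999 bp, was level at 0.06 (−0.28 to 0.40). The first 500 bp of gamma went from 86 to 61, with an interval that included 0 (log2 −0.41; −0.91 to 0.08). From 1500 to 1999 bp, gamma went from 197 to 288 (log2 0.64; 0.37 to 0.90) and beta from 309 to 421 (log2 0.53; 0.32 to 0.75). Over the 58 genes 11 of 39 tested sites in that bin were called higher (28.2%) and 0 lower, against 9.25% higher and 9.61% lower in other genes.

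The number of listed sites also varied with distance from the start. In the undifferentiated library clustered protocadherins had 8.62 listed sites per 100 genes in the 500 bp before the start and 22.4 in the first 500 bp after it, against 15.2 and 23.7 in other genes. The number then climbed to 53.4 per 100 genes between 1000 and 1499 bp and 55.2 between 1500 and 1999 bp, where other genes had 18.4 and 20.0. In the differentiated library these bins had 48.3 and 67.2 per 100 genes, against 18.4 and 19.5.

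**Figure D5:**
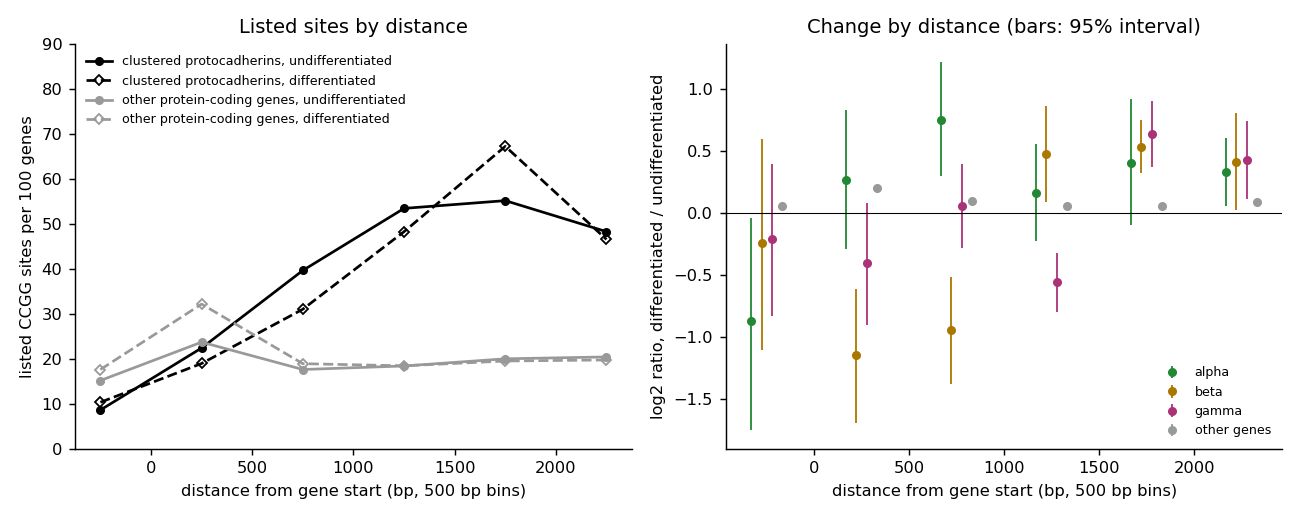
Left, listed CCGG sites per 100 genes in 500 bp bins by distance from the gene start in bp, for 58 clustered protocadherins and 17491 other protein-coding genes in both libraries. Right, the log2 ratio in each bin by cluster with 95% intervals from counting error. In beta and gamma it is above 0 from 1500 to 2499 bp, where the bins end. Before 1500 bp it is mixed, from −1.14 in the first 500 bp of beta to 0.47 in beta at 1000 to 1499 bp.

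Some of the called sites lay at like distances in related genes, and the gamma sites named first are examples only. In Pcdhga7 the sites at 1346 and 1497 bp fell from 38 to 12 and from 40 to 13 counts. In Pcdhgb7 the sites at 1238 and 1386 bp fell from 33 to 11 and from 36 to 13. Not all gamma sites at such distances fell. That at 1230 bp in Pcdhgb6 went from 20 to 28 counts, and that at 1164 bp in Pcdhgb8 from 22 to 24. In Pcdhga11 those at 1236 and 1400 bp went from 18 to 7 and from 15 to 13. In beta, 7 genes had a CCGG site with a CCTGG site starting 7 bp after it, 8 such pairs in all between 1792 and 2368 bp from the start. The log2 ratio of the CCGG site was above 0 in 7 of the 8, and 3 were called higher, where 11.6% of all tested CCGG sites were. The pairs were picked after their values had been seen. The called sites were those of Pcdhb13 (13 and 32 counts), Pcdhb15 (20 and 40) and Pcdhb16 (19 and 46). In sum the 8 CCGG sites had 101 and 177 counts. These genes are close paralogs and the fragments are short, so the assignment of reads to one copy or another is uncertain, and it was not tested.

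Outside the start windows the clusters differed from each other. The sequence from the end of the last start window to the first gene end of the cluster, leaving out the shorter gene model of Pcdhgb8, was taken as its 3′ segment. It is where the shared exons lie, but the gene table gives no exons, so the segment mixes exons with introns. In alpha the 3′ segment (37146178 to 37187657, or 41.5 kb) went from 334 to 383 counts with unlisted sites at 4, a log2 ratio of 0.29 (0.07 to 0.50), with 5 sites higher and 2 lower of 19 tested. The 3′ segment of gamma (37822046 to 37841863, or 19.8 kb) went from 89 to 117 on 7 sites, a log2 ratio of 0.48 (0.07 to 0.90), and 0.38 with unlisted sites at 0. Under each of the other scalings the intervals of both 3′ segments include 0, and neither segment was compared with the flanks. The rest of gamma, between the start windows, went from 559 to 334 counts, a log2 ratio of −0.66 (−0.86 to −0.46). Of 23 sites tested there, 2 were higher (8.70%) and 7 lower (30.4%), against 11.6% and 11.9% of all CCGG sites tested. The gamma start windows themselves were level in sum at 0.03 (−0.10 to 0.16), so the lower total of gamma came from sites between them. Some sites called lower lay just past the end of a start window, so the fall cannot be placed away from the genes. These followed Pcdhga3 (37677381, 34 and 5 counts), Pcdhgb1 (37683065, 51 and 14) and Pcdhga10 (37749967, 64 and 22). Others followed Pcdhgb7 (37754737, 37 and 15) and Pcdhgb8 (37764458, 32 and 9). The remaining lower calls, at 37801612 and 37802629, lay farther from any start window. In beta the sequence between windows went from 133 to 174 counts on 10 sites (log2 0.48; 0.14 to 0.81). In alpha it went from 283 to 266 on 21 sites (log2 −0.00176; −0.25 to 0.24), and the ratio was −0.10 with unlisted sites at 0.

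CCAGG and CCTGG sites place the methylated cytosine outside CpG. Their share of all counts was larger in the differentiated library in each cluster. It went from 16.1% (Wilson interval 14.2 to 18.2) to 23.0% (21.0 to 25.2) in alpha, from 20.9% (18.6 to 23.5) to 28.3% (25.8 to 30.9) in beta, and from 22.0% (20.3 to 23.9) to 27.4% (25.4 to 29.4) in gamma. The differences of 6.94, 7.36 and 5.34 percentage points compare with 6.79 in the flanks and 7.44 in the genome. They depended on the sites used. Over sites listed in both libraries they were 3.96 in alpha, 4.16 in beta and 0.319 in gamma. Without non-CpG sites within 100 bp of a CCGG site they were 7.47, 1.97 and 7.07. In the gap between alpha and beta the share went the other way, from 19.1% (14.6 to 24.5) to 14.9% (11.1 to 19.8).

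Many of these counts were shared with a neighbouring CCGG site. Within 16 bp of a listed CCGG site lay 39 of the 193 non-CpG sites, and they formed 39 pairs with CCGG sites. Of the pairs with both motifs listed, the counts agreed to within 3 in 23 of 26 before and in 27 of 33 after differentiation. In Pcdhb16, for example, the CCTGG site at 37479743 had 19 and 46 counts, the same as the CCGG site 7 bp away. Over 100 bp from any listed CCGG site the 3 clusters held 50 non-CpG sites before and 74 after differentiation, with 374 and 621 counts, and 18 were listed in both. The highest of these lay in Pcdhgb4 at 37721408, with 19 and 26 counts. At 55 bp from a CCGG site, Pcdhac1 had a CCTGG site at 37090342 with 14 and 36 counts.

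Methylation over the bodies of related genes and regulators was compared in the same way, with a minimum summed count of 50 and unlisted sites at 4 counts. Of all protein-coding gene bodies tested, 38.1% were called, 25.6% higher and 12.5% lower, and their median log2 ratio was 0.07. Of 12 non-clustered protocadherins, which lie alone in the genome, 3 were called higher and 0 lower, with a median of 0.03. Pcdh8, the paraxial protocadherin of early mesoderm, went from 4 to 11 listed sites and from 33 to 102 listed counts, or from 69 to 110 with unlisted sites at 4 (log2 0.76; exact test, adjusted p = 0.00276). Pcdh18 went from 47 to 73 (log2 0.72; exact test, adjusted p = 0.0243). Pcdh11x, on the X chromosome, went from 667 to 770 (log2 0.29; exact test, adjusted p = 0.000756). Pcdh1 and Pcdh12, which lie in the 3′ flank of the clusters, had 550 and 510 and 617 and 510 listed counts and were not called. These calls turned with the scaling. Pcdh8 was the one still called higher under each alternative, and 4 genes of the list were called lower with median-ratio scaling. Over all gene bodies that scaling gave 10.6% higher and 26.7% lower, the RPM divisors 7.24% and 36.7%, and all counts 11.8% and 24.5%.

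Of 14 genes known to regulate the clusters, 5 were called higher and 4 lower, with a median of 0.12. The de novo methyltransferase genes went opposite ways. Dnmt3a rose from 1975 to 2433 counts (log2 0.39; exact test, adjusted p = 1.2e-16) and Dnmt3b fell from 765 to 569 (log2 −0.34; exact test, adjusted p = 0.000185). The other genes called higher were Ctcf, Dnmt1, Dnmt3l and Wiz, with log2 ratios of 0.24, 0.14, 0.30 and 0.25. The other genes called lower were Nsd1, a histone methyltransferase, and the cohesin subunits Rad21 and Smc1a, with log2 ratios of −0.51, −0.70 and −0.47. The other cohesin subunit genes of the list, Smc3, Stag2 and Stag1, had log2 ratios of 0.17, 0.11 and −0.13 and were not called. Smchd1 and Setdb1 had log2 ratios of 0.13 and −0.19 and were not called either. With median-ratio scaling 1 regulator was called higher and 6 lower, and the same counts held with the RPM divisors and with all counts. Dnmt3a was the one still called higher, while Ctcf, Dnmt1, Dnmt3l and Wiz lost their calls under each. Dnmt3b, Nsd1, Rad21 and Smc1a were called lower under all of them. These are counts of methylated fragments over gene bodies and say nothing of how much the genes were expressed.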

How the data were processed

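Each library's table lists sites with position, motif, alignment type and count. Counts, as deposited by the authors, are whole reads per site and never below 5. The deposited RPM column was treated as a score, since it sums to 9249232.2 and 8703649.0, and served only as an alternative scaling. FastQC 0.11.3, Bowtie2 2.3.3 and GRCm38 are named in the submitters' processing notes. No sample columns were left unused (0). The 50 positions whose motif differed between libraries were left out of the CCGG comparisons. Unlisted sites were given 4 counts.

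Sites (summed count of at least 10), 100 kb windows (50), start windows (20) and gene bodies (50) were compared by Fisher's exact test, 2-sided, each against all remaining CCGG counts. P-values were adjusted by Benjamini-Hochberg over all features of the genome and called under 0.05. Ratio intervals were Clopper-Pearson and shares had Wilson intervals. Gene positions came from the RefSeq table of GRCm38.p6, which gives no exons. The planned comparison by exon was therefore made by start windows and 3′ segments that mix exons and introns. It gives no strand either, and clustered protocadherins were taken to read toward increasing position.

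The sites named were the strongest, and the called ones with the largest and smallest ratio, in each cluster, with sites known only as bounds added after seeing values. The genes named were the 3 windows with most and fewest counts per cluster, those with most called sites, the C-type genes, and, by a choice made after seeing values, all called windows. Members and lists were chosen with earlier results of these data known, and the distance bins, the split at 1500 bp and the shared-read pairs after seeing values. The tests were checked on simulated data. The test of single sites missed many changes there, so a site that was not called may still have changed. Python 3.11.15, numpy 2.4.6, scipy 1.17.1, pandas 2.3.3 and matplotlib 3.10.9 were used.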

Additional observations from a re-analysis of the deposited data

How the results depend on the processing

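The log2 ratio of alpha, 0.23 as reported, was 0.0723 with median-ratio scaling, 0.00223 with the divisors of the deposited RPM values and 0.0899 with all counts, and each interval included 0. That of beta, 0.16 as reported, was 0.0075, −0.0626 and 0.0251 under the same scalings, which is below 0 for the RPM divisors. It was 0.12 without the 1000 strongest sites of the genome and 0.14 with bounds moved inward by 10 kb, again with intervals that included 0. Gamma minus flanks was −0.0731 with 500 kb flanks. With unlisted sites at 0 the calls in alpha went from 18 to 28 and the called start windows from 11 to 17. With 50 kb windows 11 of 18 windows of the locus were called, 8 higher and 3 lower, where 33.8% of the genome's were. The rise of the non-CpG share was 10.3 percentage points in alpha for sites of at least 10 counts and 3.96 for sites listed in both libraries. It was 1.97 in beta without non-CpG sites within 100 bp of a CCGG site and 0.319 in gamma for sites listed in both. The median site of the 3 clusters had 17 counts (undifferentiated, listed in both), and 19 and 19 counts with a minimum of 10. The cause of these shifts was not tested. With the RPM divisors 6 alpha sites, 4 beta sites and 5 start windows were called higher, and 8 start windows lower. The gene body ratio of Dnmt1 was −0.014 with median-ratio scaling and −0.0841 with the RPM divisors. Among the main results, 105 other cases were counted as unchanged in direction, call or rough size under an alternative. Some of these did shift in size. The non-CpG rise in gamma was 5.34 points and became 3.01 with a minimum of 10 counts. That in beta was 7.36 points and became 4.16 for sites listed in both. The locus windows, with 3 higher and 3 lower under median-ratio scaling, were also counted there. Beta bounds from the gene table and the start window and gene body alternatives were added once values had been seen. The planned restriction to tags that occur once in the genome was not run, since no genome was used here. No paired analysis was possible because each group has 1 library. Depth limits single sites most, with medians near 13 counts in the clusters.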
